A study of Mus musculus with 2 samples.

Results

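Fibrinogen, the soluble precursor of the fibrin clot, is built from the chains encoded by Fga, Fgb and Fgg. These 3 genes were followed together with 4 further genes of plasma and acute phase proteins, Gc, Saa3, Lrg1 and Hp, 7 of the 21855 genes in the matrix. They were chosen by name, with earlier results of these data in view, so their differences between the libraries are descriptions. Single cells of kidney labelled wild type were captured in droplets from 1 control sample and 1 sample with FA (folic acid, which injures kidney tubules at high dose) nephropathy. The labels used here state no FA dose, time after FA, age or number of animals. The series title concerns GSDMD and GSDME, gasdermins that form pores in dying cells.

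Acute phase proteins are plasma proteins whose production changes in inflammation, mostly in liver cells, where cytokines of the interleukin-6 (IL-6) family act through the transcription factor STAT3. A complete fibrinogen molecule needs each of its 3 chains, so a cell can assemble it only when it makes them all. Injured kidney epithelium can also make fibrinogen chains, while haptoglobin (Hp) and leucine-rich alpha-2-glycoprotein (Lrg1) are also stored in neutrophil granules.

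The control library held 9681 barcodes and the FA library 18997, with 63646459 and 84138607 UMIs (unique molecular identifiers, each counting 1 captured transcript). After filtering, 5807 control and 13502 FA cells remained, with medians of 4861 and 2895 UMIs, and 54 barcodes occurred in both libraries. Cells were clustered without the 7 genes, and clusters were named only as resembling a type ("-like") from marker genes. Kept FA cells had 68194 UMIs of Xist, transcribed from an inactive X chromosome, against 10 in control, and Ddx3y, a Y-linked gene, was listed at 0 in FA, with 3233 UMIs in control. This sex-linked difference and the treatment cannot be told apart. With 1 library per group no test was possible: each value describes these libraries, and every interval is at 95% and covers counting error only.

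The fibrinogen genes are neighbours on mouse chromosome 3 (GRCm38): Fgg at 83007724 to 83015049 on the plus strand, Fga at 83026076 to 83033627 on the plus strand, and Fgb at 83040141 to 83049863 on the minus strand. They lie within 42.1 kb, with 11 kb between Fgg and Fga and 6.51 kb between Fga and Fgb. Their promoters are shown because the 3 chains were found in the same cells. Each runs from 250 bases before to 50 after the RefSeq transcript start, in the direction of the gene (GRCm38.p6). Capitals mark matches to 3 motifs of liver promoters, searched on both strands: CTGGGAA (IL-6 response element), TTGCNNAA (C/EBP) and TTCNNNGAA (STAT).
Fga, chr3:83025903-83026202, plus strand: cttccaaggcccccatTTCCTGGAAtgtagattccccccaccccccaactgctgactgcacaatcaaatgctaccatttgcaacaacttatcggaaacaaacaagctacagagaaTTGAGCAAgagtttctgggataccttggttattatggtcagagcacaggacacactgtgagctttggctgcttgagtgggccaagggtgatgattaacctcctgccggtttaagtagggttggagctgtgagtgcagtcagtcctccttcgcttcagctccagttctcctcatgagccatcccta
Fgb, chr3:83049814-83050113, minus strand: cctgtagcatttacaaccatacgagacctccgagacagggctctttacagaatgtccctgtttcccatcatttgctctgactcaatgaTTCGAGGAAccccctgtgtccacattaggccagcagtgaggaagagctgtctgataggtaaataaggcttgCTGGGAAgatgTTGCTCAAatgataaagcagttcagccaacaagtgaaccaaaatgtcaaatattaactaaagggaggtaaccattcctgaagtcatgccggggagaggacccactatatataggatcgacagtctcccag
Fgg, chr3:83007474-83007773, plus strand: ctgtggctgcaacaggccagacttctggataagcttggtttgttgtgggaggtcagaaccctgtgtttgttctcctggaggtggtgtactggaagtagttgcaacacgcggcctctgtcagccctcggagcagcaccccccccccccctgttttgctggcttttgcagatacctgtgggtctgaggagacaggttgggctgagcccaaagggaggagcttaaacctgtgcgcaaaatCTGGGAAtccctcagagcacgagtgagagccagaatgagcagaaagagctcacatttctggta
The Fga window held a C/EBP match at -135 and a STAT match at -234, each position being that of the match's 5′ base on the gene's strand. In the Fgb window all 3 motifs occurred, at -80 (C/EBP), -91 (IL-6 response element) and -162 (STAT). The Fgg window held only an IL-6 response element, at -13. Of 32851 RefSeq promoter windows of this length, 11.1% held CTGGGAA, 10.8% TTGCNNAA and 8.30% TTCNNNGAA. STAT reads the same on both strands, so each of its matches counts on both, and no other matches overlapped. These are matches of letters, and nothing was measured at these sites.

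The other members lie on 4 more chromosomes: Gc on chromosome 5 (89417522 to 89457898), Saa3 on 7 (46711998 to 46715700), Hp on 8 (109575128 to 109579172) and Lrg1 on 17 (56119678 to 56122001), all on the minus strand. In their windows a CTGGGAA match was found at -66 in Gc and -102 in Lrg1, and Saa3 held a C/EBP match at -99. A promoter sequence was matched for 6 of the 7 genes.

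Over all kept cells the fibrinogen chains together stood at 19.2 CPM (UMI counts scaled to the total of the cells summed; 17.9 to 20.6) in control and 232.5 CPM (228.6 to 236.5) in FA, a ratio of 12.1 (11.3 to 13.02). Fga, the A-alpha chain, was at 6.16 CPM in control and 52.6 in FA. Fgb, the B-beta chain, was at 4.41 and 63.0 CPM. Fgg, the gamma chain, was at 8.65 and 116.9 CPM. The ratios were 8.54 for Fga (7.504 to 9.75), 14.3 for Fgb (12.3 to 16.7) and 13.5 for Fgg (12.1 to 15.1).

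Among the other members, Saa3, an inflammatory serum amyloid A, had the highest ratio, 89.0 (59.7 to 139), from 0.591 to 52.7 CPM, with only 24 UMIs in control. Hp, which binds free haemoglobin, was at 7.54 CPM in control and 141.5 in FA, a ratio of 18.8 (16.7 to 21.1). Lrg1, a secreted modulator of TGF-beta signalling in vessels, was at 2.09 and 32.2 CPM, a ratio of 15.4 (12.4 to 19.3). Gc, the vitamin D-binding protein, was at 61.0 and 79.7 CPM, a ratio of 1.31 (1.24 to 1.37). So 6 of 7 members were at least 2-fold higher in FA, as were 11.6% of all 18105 genes measured, and none was 2-fold lower, as were 18.6% of genes. The rule rests on this contrast, and nothing is read from that count. Weighing every cell the same moved the ratio of the chains to 22.1, of Gc to 2.39 and of Saa3 to 32.6.

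In FA the 7 genes divided between tubule and myeloid cells. Proximal and injured tubule-like cells held 90.3% of Fga, 90.4% of Fgb, 90.6% of Fgg and 89.4% of Gc UMIs in FA. Monocyte-like and neutrophil-like cells held 95.8% of Hp, 84.4% of Saa3 and 83.4% of Lrg1 UMIs. In FA these 2 classes were 544 and 408 cells, against 57 and 14 in control, and proximal tubule-like cells were 1598 against 2159, so whole-library ratios combine level and number of cells. Injured tubule-like cells were 2532 in FA and 11 in control, so they were described in FA alone.

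In control, proximal tubule-like cells already held the chains at a low level. Of control UMIs they held 235 of 250 for Fga, 335 of 351 for Fgg and 89 of 179 for Fgb. Another 85 Fgb UMIs (47.5%) came from cluster 33, 106 unnamed control cells led by Ncam1, Msmp, Stc2 and Cp. The marker list nearest to this cluster was that of hepatocytes, but none of its markers was among the leading 25 genes, and Alb (albumin) was at 12.2 CPM (7.43 to 18.8). In that cluster Fgb made up 87.6% of chain UMIs (79.4 to 93.4), against 13.5% (10.99 to 16.4) in control proximal tubule-like cells. Gc was at 386.7 CPM there, and Fga and Fgg were at 5.47 and 1.82 CPM. Its 31 FA cells had 208 CPM of Gc and 29.0 CPM of Fgb, with 12 of only 16 chain UMIs from Fgb, and no Alb UMI. No cell of cluster 33 held all 3 chains in either library.

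Within proximal tubule-like cells all 5 members with at least 20 UMIs were over 2-fold higher in FA, beside 12.8% of the genes measured in that class (11.2% were 2-fold lower). Fga was at 13.6 CPM (11.96 to 15.5) in control and 302.2 (286.1 to 318.9) in FA, a ratio of 22.1 (19.3 to 25.5). For Fgb the levels were 5.17 CPM (4.15 to 6.36) and 294.6 CPM (278.7 to 311.2), and the ratio 57.0 (45.9 to 71.5). Fgg had 19.5 CPM (17.4 to 21.7) in control against 695.7 (671.1 to 720.9), 35.8 times as much (31.9 to 40.1). The counting intervals of the libraries did not overlap for any chain. The genes were chosen with this contrast in view, so nothing is read from that separation.

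Gc was also higher in this class, with 102.5 CPM (97.8 to 107.4) in control against 431.4 (412.1 to 451.4) in FA, or 4.21 times as much (3.94 to 4.49). Lrg1 had 1.97 and 15.4 CPM and a ratio of 7.79 (5.08 to 12.1), which no filter on mitochondrial share or genes raised to 16.1. Saa3 and Hp had too few UMIs there to measure. Of the 3 chains Fgb had the largest ratio, and its share of chain UMIs went from 13.5% (10.99 to 16.4) in control to 22.8% (21.7 to 23.9) in FA, while that of Fga went from 35.7% (32.0 to 39.5) to 23.4% (22.3 to 24.5). Different clusters held most of the class in the libraries: clusters 10, 16, 21, 22 and 29 all but 4 of the 2159 control cells, and clusters 4 and 15 all but 3 of the 1598 FA cells. With cells of at most 20% mitochondrial UMIs and at least 500 genes the ratios were 16.7 for Fga, 25.9 for Fgb, 20.2 for Fgg and 2.93 for Gc, and Leiden resolution 0.5 gave 89.2 for Fgb.

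**Figure D1:**
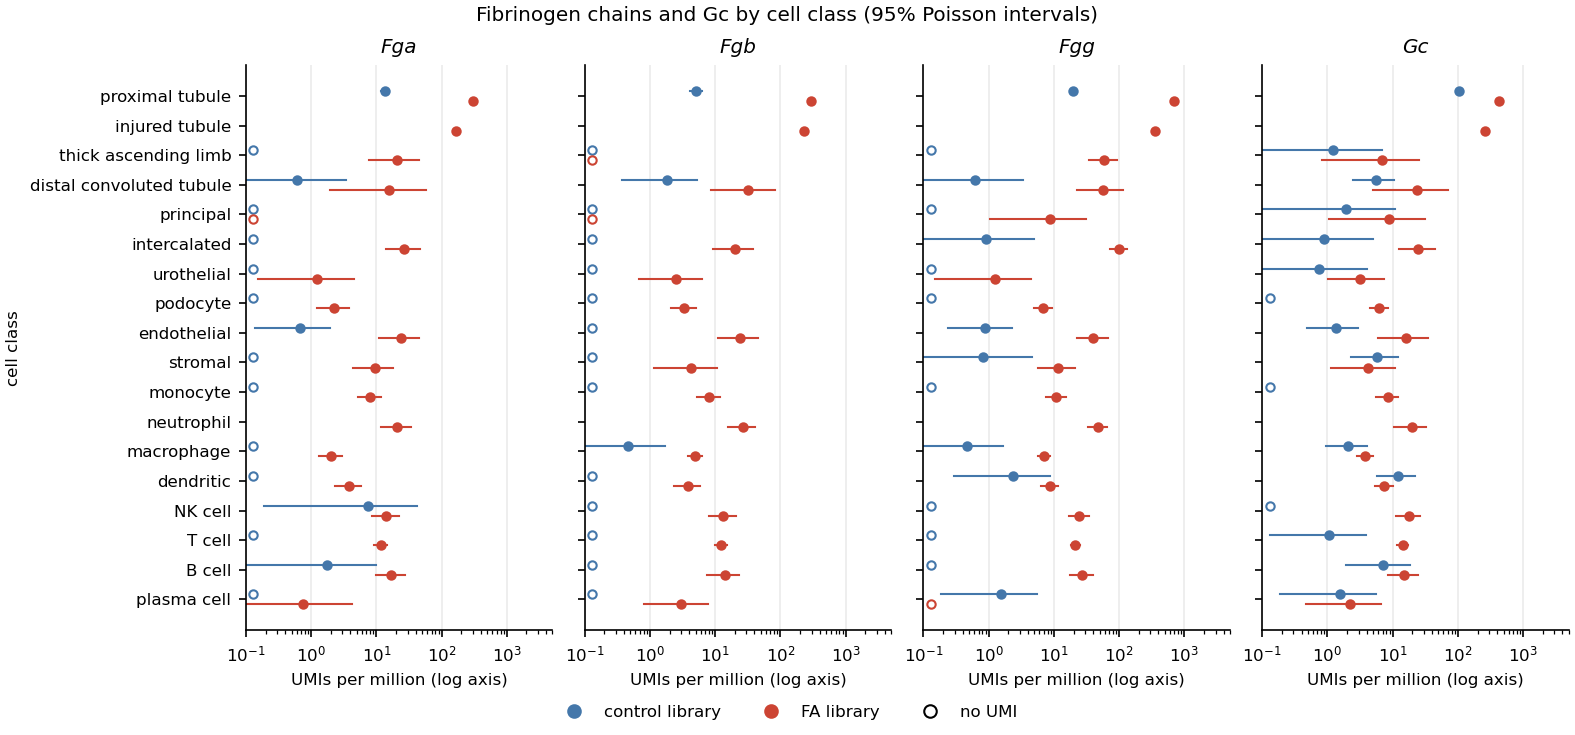
Level of Fga, Fgb, Fgg and Gc (CPM, log axis) in each cell class with at least 20 cells, for the control and FA libraries; bars are 95% Poisson intervals, cut at the left edge, and open circles at that edge stand for no UMI. Proximal and injured tubule-like cells of FA stood above every other class for each of the 4 genes.

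In FA the order of the classes began with proximal tubule-like, then injured tubule-like cells, for each chain and for Gc, and their intervals did not overlap. For Fgb this order rests on cluster 4, whose proximal and injured tubule marker scores were close. Cluster 15, the rest of the FA proximal class, had less Fgb than injured tubule-like cells, at 122.6 CPM. Its levels of Fga, Fgg and Gc lay above those of injured tubule-like cells, but below those of the whole proximal class. No intervals are compared for these levels, and the excess over injured tubule-like cells was small for Fga and Gc. Injured tubule-like cells had 166.6 CPM of Fga, 233.2 of Fgb, 360.0 of Fgg and 260.4 of Gc. Intercalated-like cells of the collecting duct came next for the summed chains with 146.0 CPM (112.7 to 186.1), and their interval overlapped that of distal convoluted tubule-like cells, 103.2 CPM (54.9 to 176.4).

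T cells are not known to express fibrinogen and give a gauge of free RNA. T cell-like cells of FA had 45.4 CPM of chains (40.3 to 50.8), and B cell-like cells 57.8 (43.9 to 74.8). Control T cell-like cells had no chain UMI and B cell-like cells 1. The T cell-like chain UMIs of FA were 25.6% Fga (20.7 to 30.9), 27.3% Fgb (22.3 to 32.7) and 47.1% Fgg (41.3 to 52.99), with 31.3 Gc UMIs per 100, beside 22.6%, 26.9%, 50.5% and 33.7 in FA tubule-like cells. Of the named FA leukocyte classes, neutrophil-like cells had the most, 94.6 CPM (73.4 to 119.9). That interval overlapped those of intercalated and distal convoluted tubule-like cells. Chain levels of FA classes that overlap this interval or lie below it are not read here as expression.

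Counted over the 12 classes with enough cells in both libraries, 34 pairs of member and class had at least 20 UMIs. In FA 23 of these pairs stood 2-fold or more above control, and 0 stood 2-fold below. Keeping likely doublets made it 52 of 63 pairs. Several pairs reached 20 UMIs through FA alone, such as Fgg in T cell-like cells, with 0 control and 140 FA UMIs. Such pairs could hardly stand lower in FA, so nothing is read from these counts. Beyond proximal tubule-like cells, the pairs of chains or Gc past 2-fold were Fga, Fgb, Fgg and Gc in T cell-like cells (4 of 4 measured, beside 10.4% of genes higher and 5.51% lower) and Fgg alone in B cell-like cells (1 of 1, beside 8.88% and 4.56%). Fgg was also the 1 past 2-fold in dendritic-like (1 of 4, beside 11.4% and 8.44%), podocyte-like (1 of 3, beside 6.66% and 4.31%) and intercalated-like cells (1 of 1, beside 8.79% and 10.9%). In macrophage-like cells the 3 chains, Saa3 and Hp were past it (5 of 6, beside 14.4% and 12.2%). The summed chains of FA stood at 14.0 CPM in macrophage-like, 16.2 in dendritic-like and 12.4 in podocyte-like cells. All 3 levels lay below that of T cell-like cells. No member was measured in plasma cell-like (28.5% of genes higher, 2.46% lower) or stromal-like cells (5.60% and 9.49%).

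The FA tubule-like clusters differed in chain level. Cluster 4 (1024 cells named proximal tubule-like, with a marker score of 1.21 beside 1.15 for injured tubule) had 477.8 CPM of Fga, 555.2 of Fgb and 1095 of Fgg, and the 3 chains were among its 10 leading genes although clustering did not use them. Cluster 19 (393 injured tubule-like cells led by Vcam1 and Havcr1) had 307.2, 452.8 and 652.3 CPM. Cluster 15 (571 proximal tubule-like cells led by Cyp4a14, a fatty acid hydroxylase) had 186.0, 122.6 and 431.7 CPM. Clusters 0 and 5, also injured tubule-like, had summed chain levels of 441.5 and 335.1 CPM, against 2128 in cluster 4, 1412 in cluster 19 and 740.3 in cluster 15.

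The chains were not in one ratio across these clusters. Fgb made up 32.1% of chain UMIs in cluster 19 (30.7 to 33.4), 26.1% in cluster 4 (24.7 to 27.5) and 16.6% in cluster 15 (14.9 to 18.3). Fgg took the opposite order, 46.2%, 51.5% and 58.3%, and these intervals did not overlap. Gc followed the summed chains over the same 3 clusters, with 642.3 CPM in cluster 4, 514.8 in cluster 19 and 291.9 in cluster 15, but was at 81.6 CPM in cluster 0 and 132.4 in cluster 5.

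All 3 chains were seen in 544 FA cells and 10 control cells. Of the FA cells 535 (98.3%, 96.9 to 99.2) were tubule-like, with 199 in cluster 4, 166 in cluster 19, 92 in cluster 15, 47 in cluster 5 and 31 in cluster 0, and 9 lay outside the tubule-like classes. The 10 control cells were all in cluster 10, proximal tubule-like cells led by Slc6a19. In FA they were 11.96% of 4475 tubule-like cells (11.02 to 12.9), and in control 0.372% of 2687 (0.179 to 0.683), although the median control tubule-like cell was deeper, 6503 against 1978 UMIs. The 3-chain cells held 65.1% of the chain UMIs of FA tubule-like cells, with a median of 10 chain UMIs and up to 129 in 1 cell. Cells with all 3 chains were also deeper, with a median of 4108 UMIs against 1418 in cells with none.

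To set depth aside, each cell was thinned to 1000 UMIs, which left out 1000 FA and 135 control tubule-like cells. All 3 chains then remained in 132 of 3475 FA tubule-like cells, 3.799% (3.19 to 4.49), and in 0 of 2552 control ones, which allows up to 0.118% taking 3 cells as the limit of a count of 0. Among T cell-like cells of FA, with a median of 2779 UMIs, it was 0 of 2052, which allows up to 0.146%. At least 1 chain was seen in 37.6% of FA tubule-like cells, 3.95% of FA T cell-like cells and 10.8% of FA neutrophil-like cells. With at most 20% mitochondrial UMIs and at least 500 genes the 3-chain share of tubule-like cells was 2.66%, and proximal and injured tubule-like cells changed order, from 7.25% and 1.91% to 2.76% and 2.92%. Over all FA tubule-like cells, thinning to 500 or 2000 UMIs gave 1.296% or 8.02%, and requiring 2 UMIs of each chain gave 0.748%.

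Thinned, cluster 4 had the highest 3-chain share, 11.04% (8.87 to 13.5), followed by cluster 19 with 6.87% (4.58 to 9.84); their intervals overlapped. Cluster 15 had 2.30% (1.23 to 3.90), cluster 5 0.782% (0.255 to 1.82) and cluster 0 0.551% (0.179 to 1.28). Without thinning the order of the leading clusters was the reverse, 42.2% in cluster 19 and 19.4% in cluster 4, whose median cells held 6366 and 1354 UMIs. Cluster 4 also had the highest median mitochondrial share of these clusters, 32.4%, beside 4.61% in cluster 19 and 0.965% in cluster 5; the part of RNA quality in its chain level was not tested.

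**Figure D2:**
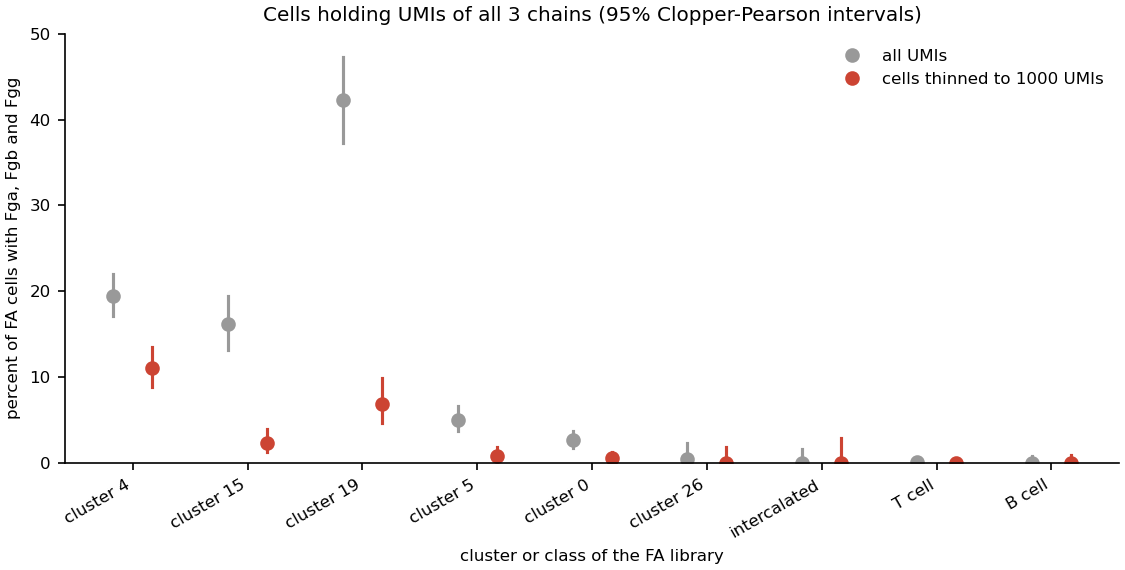
Percent of FA cells with UMIs of Fga, Fgb and Fgg (vertical axis) in clusters and classes of the FA library, with every UMI and with cells thinned to 1000 UMIs; bars are 95% Clopper-Pearson intervals. Cluster 19 was highest with every UMI (42.2%) and cluster 4 after thinning (11.04%), and the T and B cell-like classes were at 0 after thinning.

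Each chain was more frequent in cells that held another. In thinned FA tubule-like cells, Fgg was seen in 53.0% (48.6 to 57.4) of 515 cells with Fga and in 20.3% (18.9 to 21.8) of 2960 cells without. Fgb was in 37.7% of cells with Fga and 12.1% of those without, and Fgg in 54.1% of cells with Fgb and 19.7% of those without. For Fga and Fgg the same held inside 4 of the 5 main clusters. In cluster 4 Fgg was in 67.6% (60.8 to 73.9) of cells with Fga and 37.7% (33.6 to 42.0) without. The shares were 60.2% and 28.1% in cluster 19 and 57.6% and 19.5% in cluster 15. In cluster 5 they were 35% (20.6 to 51.7) and 13.9% (11.2 to 16.9). In cluster 0, the largest, Fgg was in 19.6% (12.03 to 29.1) of cells with Fga and 15.5% (13.04 to 18.1) without, and these intervals overlapped. For the other chain pairs of cluster 0 the intervals did not overlap. There Fgg was in 29.2% (20.3 to 39.3) of cells with Fgb and 14.3% (11.97 to 16.9) without. Fgb was in 19.6% (12.03 to 29.1) of its cells with Fga and 9.57% (7.64 to 11.8) without. Gc was found in 34.8% (30.6 to 39.0) of cells with Fga and 17.7% (16.3 to 19.1) of cells without, but within clusters 4, 5, 15 and 19 those intervals overlapped. In cluster 0 they did not, at 14.1% (7.74 to 22.95) and 5.52% (4.06 to 7.32). This changed with the chain used. Split by Fgb, the Gc intervals overlapped in cluster 0 but not in cluster 15, at 36.7% (24.6 to 50.1) and 19.2% (15.8 to 22.9). Split by Fgg, they overlapped in each of the 5 main clusters.

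Sorted by the number of chains, thinned FA tubule-like cells differed in tubule markers, and 82 of the 132 cells with 3 chains were in cluster 4. Slc34a1, the brush border phosphate transporter, was in 39.5% of cells with no chain and 56.8% (47.9 to 65.4) of 3-chain cells. Havcr1 (KIM-1, an injury marker) was in 7.48% (6.40 to 8.66) and 15.9% (10.1 to 23.3), and Vcam1, an adhesion molecule of injured tubule, in 16.1% (14.6 to 17.7) and 31.8% (24.0 to 40.5). Inside cluster 4 the Slc34a1 and Havcr1 intervals overlapped, at 61.5% and 68.3% and at 14.3% and 17.1%, whereas Vcam1 was in 16.8% (12.6 to 21.6) and 32.9% (22.9 to 44.2). In cluster 19, with 27 of the 3-chain cells, Vcam1 was in 44.97% (37.7 to 52.4) and 55.6% (35.3 to 74.5), overlapping, and in cluster 15 in 0 of 13 such cells.

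Lrp2 (megalin, the endocytic receptor that takes up Gc) was in 31.3% (29.3 to 33.3) of cells with no chain and 37.9% (29.6 to 46.7) with 3, within counting error. Krt20, a keratin of injured tubule, was in 4.32% to 6.33% and Lcn2 (lipocalin 2, an injury marker) in 5.08% to 5.58% of cells over 0 to 3 chains. No difference in either was detectable at these counts. For Itgb6 and Sox9, other genes of injured tubule, the shares leaned the other way from Havcr1 and Vcam1. All 3 chains were in 2.18% of thinned FA tubule-like cells with Itgb6 and 4.02% of those without. For Sox9 they were in 2.56% and 3.86%. The intervals overlapped for both genes, so the rise in Havcr1 and Vcam1 is not read as one of injury genes in general.

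Some secreted acute phase genes went with the chains. C3, the central complement protein, was in 37.2% (35.2 to 39.3) of cells with no chain, 56.0% with 1, 68.4% with 2 and 84.1% (76.7 to 89.9) with 3. The C3 difference was also present inside cluster 4, at 49.7% (43.7 to 55.6) and 86.6% (77.3 to 93.1), and inside cluster 19, at 68.3% (61.1 to 74.8) and 92.6% (75.7 to 99.1). Cp (ceruloplasmin, a copper-carrying ferroxidase) was in 12.6% (11.3 to 14.1) and 30.3% (22.6 to 38.9) of cells with 0 and 3 chains, and inside cluster 4 in 13.99% and 31.7%. In cluster 19 the Cp intervals overlapped, at 35.5% (28.6 to 42.7) and 40.7% (22.4 to 61.2), and in cluster 15 Cp was in 0 of 13 cells with 3 chains. Gc was in 15.04% (13.6 to 16.6) and 40.2% (31.7 to 49.0) of all such cells, but inside cluster 4 in 35.3% (29.8 to 41.2) and 40.2% (29.6 to 51.7), with overlapping intervals. The median mitochondrial share was 9.73% with no chain and 24.9% with 3, and its part in these differences was not tested.

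**Figure D3:**
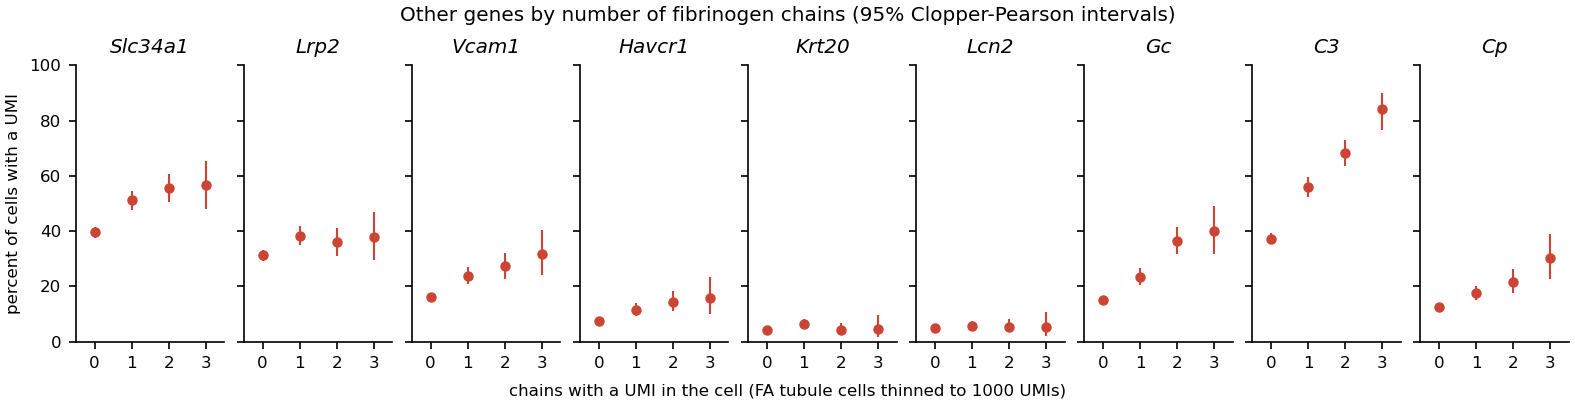
Percent of thinned FA tubule-like cells with a UMI of each gene (vertical axis) by the number of fibrinogen chains seen in the cell (horizontal axis); bars are 95% Clopper-Pearson intervals. C3, Gc, Cp and Vcam1 were in more of the cells with 3 chains, while Krt20 and Lcn2 stayed near 5%.

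The genes with the largest excess in share in 3-chain over 0-chain cells included Tmem176a (38.3% to 87.9%), C3, the lysosomal proteases Ctsl (34.9% to 80.3%) and Ctsb (32.4% to 70.5%), the endoplasmic reticulum chaperone Calr (25.01% to 68.9%) and the lipid carrier Apoe (24.4% to 67.4%). Igfbp7, Tmem176b, B2m and Tmbim6 completed the leading 10, with excesses of 37.4 to 40.2 percentage points. Deficits in 3-chain cells were smaller. Ddx5, an RNA helicase, was in 44.1% of cells with no chain and 24.2% with 3. The nuclear speckle proteins Srrm2 and Son and the nuclear RNA Neat1 were in 43.0% and 25.8%, 28.1% and 11.4%, and 45.7% and 28.8%. Atp5g3 and Atp5h (ATP synthase), Ivns1abp, Naca, Slc25a3 and Zbtb20 were the other 6, lower in share by differences of -17.75 to -16.25 percentage points. Both rankings pool the tubule-like clusters, and 82 of the 132 3-chain cells were in cluster 4. They were not repeated inside clusters.

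Over 29 sums of class and library, the gene whose log2 level was most like that of the chains was Slc13a1, the sodium sulfate cotransporter of the proximal tubule (Pearson r = 0.959). Fabp1 (0.953), Acat3 (0.943), Erich4 (0.915), Pck1 (0.914), Ugt2b37 (0.910), Gc (0.897), Cyp4a14 (0.897), Cyp4a10 (0.888) and Guca2b (0.887) came next, among 8145 genes. The genes most like Gc were Slc13a1 (0.920), Slc4a4 (0.906) and Slc51b (0.905). Sums of 1 library share its depth and free RNA, and few of the 29 are tubule-like, so these r values only describe.

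In FA, Hp, Saa3 and Lrg1 lay mostly in myeloid cells. In control, monocyte, neutrophil and macrophage-like cells held 81.0% of 306 Hp UMIs, but only 25.9% of 85 Lrg1 UMIs and 12.5% of 24 Saa3 UMIs, beside 40% and 37.5% in tubule-like cells. In monocyte-like cells Hp was at 472.2 CPM (406.6 to 545.4) in control and 2080 (2031 to 2131) in FA, a ratio of 4.41 (3.81 to 5.13). Saa3 had 1 UMI in 57 control monocyte-like cells and 794.1 CPM (763.6 to 825.5) in FA, a ratio of 311.1 with a counting interval of 55.8 to 12293. Lrg1 had no UMI in control and 236.7 CPM (220.1 to 254.1) in FA, at least 30.9-fold higher than the level of 3 counts per library (the exact interval starts at 25.1). These 3 were the members 2-fold higher in this class, beside 9.86% of its genes (9.59% were 2-fold lower), out of 7 measured.

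Hp was the most widespread of the 3 in FA monocyte-like cells, seen in 93.4% of cells (91.0 to 95.3), with Lrg1 in 39.2% (35.0 to 43.4) and Saa3 in 35.7% (31.6 to 39.8). In T cell-like cells of FA those shares were 0.0446%, 0.625% and 0.402%, at a median of 2779 UMIs against 5876. Thinned to 1000 UMIs, Hp was in 31.6% (19.9 to 45.2) of control and 72.9% (68.9 to 76.6) of FA monocyte-like cells.

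Neutrophil-like cells, 408 in FA with a median of 1668 UMIs, had 1117 CPM of Lrg1 (1041 to 1197), the highest of any class, 1676 CPM of Hp (1583 to 1773) and 48.7 CPM of Saa3 (33.9 to 67.7). Lrg1 was in 64.7% of them and Saa3 in 1.96%, so Lrg1 and Saa3 led in different myeloid classes. Macrophage-like cells had less: Saa3 went from 0.467 to 30.4 CPM, a ratio of 65.1 (17.9 to 540), with 2 control UMIs, and Hp from 4.20 to 16.5 CPM, a ratio of 3.92 (2.42 to 6.75). Different clusters held this class too: cluster 11 had 685 of the 702 control cells, and clusters 1, 24 and 27 had 1133, 265 and 216 of the 1617 FA cells.

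**Figure D4:**
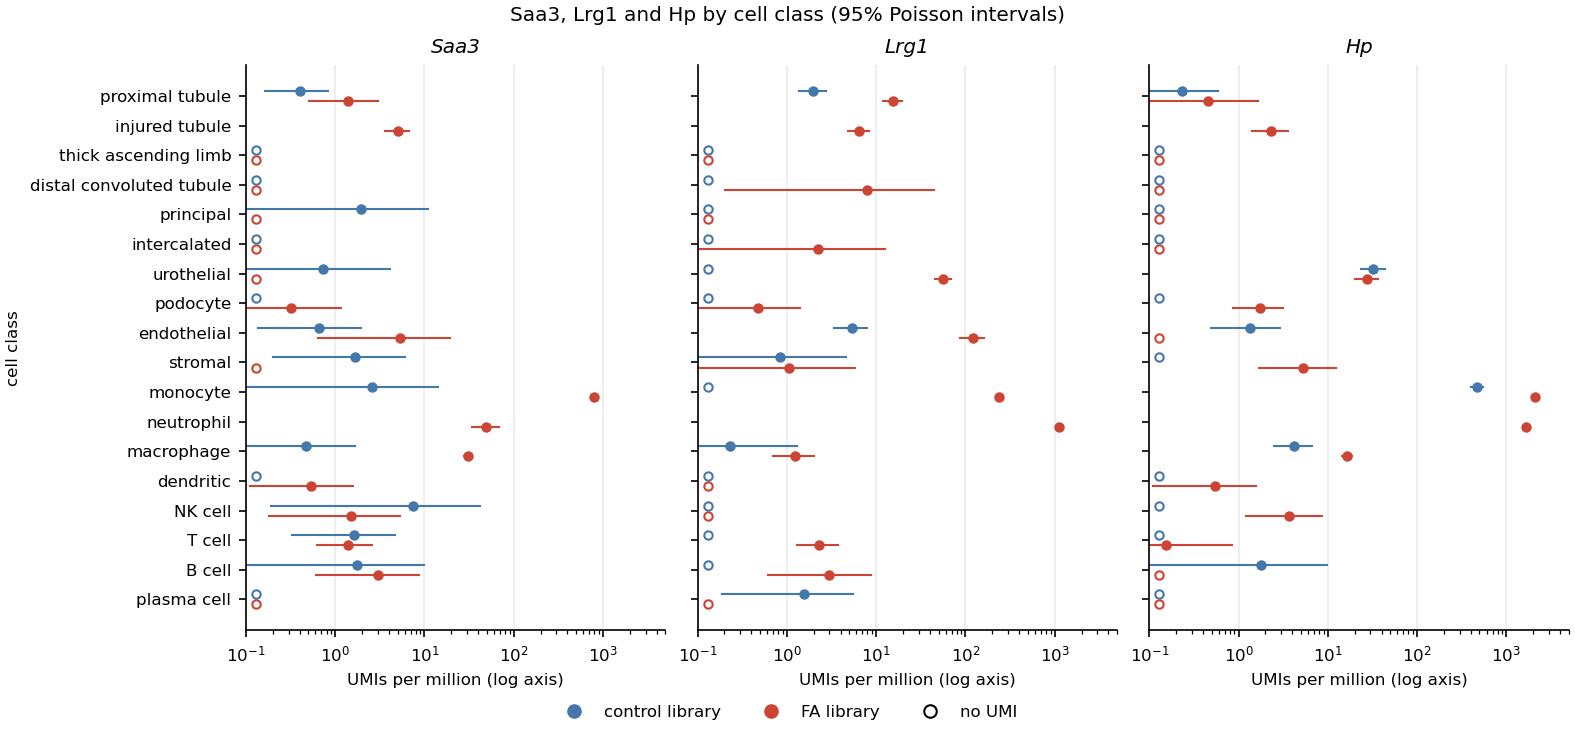
Level of Saa3, Lrg1 and Hp (CPM, log axis) in each cell class with at least 20 cells, for the control and FA libraries; bars are 95% Poisson intervals, cut at the left edge, and open circles at that edge stand for no UMI. Monocyte-like cells led for Saa3 and Hp and neutrophil-like cells for Lrg1, and Lrg1 was also present in FA endothelial and urothelial-like cells.

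Lrg1 also differed in endothelial and urothelial-like cells. In endothelial-like cells it was at 5.33 CPM (3.41 to 7.92) in control and 120.6 (87.98 to 161.4) in FA, a ratio of 22.6 (13.5 to 38.9), and it was in 0.742% (0.299 to 1.52) of 944 control cells and 15.9% (9.97 to 23.4) of 126 FA cells. It was the 1 member measured there and was past 2-fold beside 6.50% of genes higher and 10.6% lower. In urothelial-like cells Lrg1 went from no UMI to 56.8 CPM (45.7 to 69.7), at least 25.8-fold higher than the level of 3 counts (the exact interval starts at 20.6), beside 4.13% of genes 2-fold higher and 8.54% lower, whereas Hp was at 32.3 CPM (23.4 to 43.3) in control and 27.4 (19.9 to 36.8) in FA, within counting error.

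Saa3 was most like Slfn4 (r = 0.811), Chil3 (0.806) and Trim30c (0.805) over the 29 sums, and Hp most like Mmp8 (0.896), a neutrophil collagenase, Slc7a11 (0.882) and Trem3 (0.877). Lrg1 was most like Wfdc21 (0.786), Lcn2 (0.770) and Sema6b (0.718). Between members, Saa3 and Hp had r = 0.723, Gc and Fga 0.897, and Gc and Hp -0.10.

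Other acute phase genes were counted from a list of 33. Over all kept cells 5 of 18 with at least 20 UMIs were 2-fold higher in FA and 5 lower, beside 11.6% and 18.6% of all genes, with a median log2 ratio of -0.22 against -0.10. Lcn2 was at 6.16 and 124.3 CPM, Il1rn (an inhibitor of interleukin-1) at 1.503 and 26.1, C3 at 71.5 and 383.9, and Fn1 (fibronectin) at 16.3 and 70.5. Ttr (transthyretin) and Alb were lower, at 47.1 and 6.81 and at 5.67 and 0.960 CPM. In proximal tubule-like cells 8 of 14 were higher and 1 lower, beside 12.8% and 11.2% of all genes there, with a median of 2.73 against -0.13. There C3 was at 5.40 and 1277 CPM, Cp at 0.929 and 110.2, Agt (angiotensinogen) at 5.11 and 69.8, and Alb at 11.4 and 1.38 CPM. Saa1 had 172 UMIs in FA, highest in injured tubule-like cells at 17.7 CPM. It is 1 of 2543 names with UMIs in FA barcodes alone, so its listing at 0 in control may be a matter of naming and no fold is given.

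Of 31 listed coagulation and fibrinolysis genes, 6 of 24 measured were higher and 10 lower over all kept cells (all genes 11.6% and 18.6%), with a median of -0.30 against -0.10. F10 (coagulation factor X) was at 1.36 and 17.05 CPM and F13a1 (the catalytic subunit of the fibrin-crosslinking factor XIII) at 6.16 and 25.8, both highest in monocyte-like cells. F8, F13b, Serpinf2 (the inhibitor of plasmin) and Proc (protein C) were lower, at 37.8 and 2.06, 48.3 and 3.70, 19.6 and 2.38, and 35.2 and 6.81 CPM. In proximal tubule-like cells 8 of 18 were higher and 3 lower (all genes 12.8% and 11.2%), with a median of 0.77. Plat, the tissue plasminogen activator that starts the breakdown of fibrin, was at 0.290 and 35.4 CPM there, and F13b, the carrier subunit of factor XIII, at 106.7 and 34.0.

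Of 24 listed genes of IL-6 family signalling and liver-type transcription factors, 13 of 23 measured were higher and 4 lower over all kept cells (all genes 11.6% and 18.6%), with a median of 1.01 against -0.10. Osm (oncostatin M, an IL-6 family cytokine) was at 3.01 and 64.7 CPM, highest in neutrophil-like cells at 1028, and Lif, another such cytokine, at 0.641 and 4.65. Socs3, a feedback inhibitor induced by STAT3, was at 56.7 and 467.5 CPM, and the C/EBP genes Cebpd and Cebpb at 36.6 and 260.3 and at 60.4 and 394.3. Pim1, a kinase gene, had a ratio of 6.18. In proximal tubule-like cells 7 of 20 were higher and 2 lower (all genes 12.8% and 11.2%), with a median of 0.54, and Il6 was at 0 there. Socs3 had 0.174 and 17.4 CPM in that class, on 3 control UMIs, while Hnf4a was at 328.4 and 136.4. In thinned FA tubule-like cells, all 3 chains were in 3.62% of cells with Socs3 and 3.81% of cells without. These shares were 3.47% and 3.82% for Stat3, 3.42% and 3.84% for Cebpb, and 1.55% and 3.89% for Cebpd. They were 4.60% and 3.76% for Il6st, and 0 of 83 cells and 3.89% for Osmr. The intervals overlapped for each of these genes.

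Of 18 receptors and partners of the member proteins, 8 were higher and 6 lower over all kept cells (all genes 11.6% and 18.6%), with a median of 0.64 against -0.10. Itgam, the leukocyte integrin subunit that binds fibrinogen, was at 15.4 and 134.8 CPM, and Fpr2, a receptor for serum amyloid A, at 1.11 and 8.61. Cdh5 and Eng, of endothelial cells, had ratios of 0.0934 and 0.130, beside 944 control and 126 FA endothelial-like cells. Lrp2 and Cubn, the uptake receptors for Gc, were at 544.7 and 122.4 and at 102.0 and 24.0 CPM. Within proximal tubule-like cells, where 9 of 13 were higher and 1 lower (all genes 12.8% and 11.2%), Lrp2 was at 1211 and 954.5 CPM and Cubn at 230.2 and 188.7.

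Hepatocytes are the usual source of these plasma proteins, and their markers were counted in the same classes; the part of RNA from such cells was not tested. Of 7 listed markers 6 were in the file and all 6 had UMIs in proximal tubule-like cells of both libraries. Their summed level ran over classes from 0 to 122.4 CPM in control and from 0 to 99.4 in FA, highest in proximal tubule-like cells of both and mostly from Ttr. Alb, the defining transcript, had 6 UMIs in FA proximal and 2 in FA injured tubule-like cells, beside 5629 and 6637 chain UMIs. Only 3 of all 3475 thinned FA tubule-like cells had an Alb UMI. None of these was among the 132 with 3 chains, but at so low a frequency nothing is read from that. On a longer hepatocyte list of 12 genes, 0 of 7 measured were higher and 4 lower over all kept cells (all genes 11.6% and 18.6%). The median log2 ratio was -1.89 against -0.10. In proximal tubule-like cells 2 of 5 were higher and 1 lower (all genes 12.8% and 11.2%), with a median of 0.48 against -0.13. The 2 were Serpina1a (9 control and 54 FA UMIs) and Apoc3 (90 and 59 UMIs, with a ratio of 2.59), and the lower 1 was Alb.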

How the data were processed

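The deposited matrix holds whole-number UMI counts for 28678 barcodes of both samples; the submitters' processing notes name Seurat and mm10, and no aligner or counter is named in the labels used here. Barcodes prefixed C were taken as control by that letter alone. Names that differed between libraries were joined through RefSeq synonyms (228 pairs). The members and lists were chosen with earlier results of these data known, and the naming thresholds and motifs after clusters and sequences had been seen.

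Cells with at least 200 genes, 500 UMIs and at most 50% mitochondrial UMIs were kept. The cells with the highest simulated-doublet scores, 488 control and 2420 FA, were left out at 0.8% per 1000 barcodes by a rewritten Scrublet-type score. Clustering used 2000 variable genes without the 7 members, 30 components, 15 neighbours and Leiden resolution 1 (leidenalg 0.10.2), giving 40 clusters, 4 of them unnamed. Counts were summed per class and scaled to the class total. Intervals are exact at 95%: Poisson for levels, conditional binomial for ratios, Clopper-Pearson for shares. Classes were compared with at least 50 cells in each library, and a gene was measured with at least 20 UMIs over both. For a count of 0, folds and limits took 3 counts in place of an interval. Ratios and thinning were checked on simulated data. Named genes were all members, the genes of highest correlation, the 10 largest gains and losses between 3-chain and 0-chain cells, and up to 6 of each list by size of the log2 ratio over all kept cells; other list genes, and those given for proximal tubule-like cells, were chosen after their values were seen.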

Additional observations from a re-analysis of the deposited data

Results flagged for a closer look

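Barcodes left out of the comparisons also held fibrinogen chains. The 3075 FA barcodes that failed the cell filter had 363.8 CPM of chains (345.5 to 382.7), above the 3.15 CPM (2.39 to 4.08) of the 3386 such control barcodes. Of these, 2982 in FA and 3380 in control had over 50% mitochondrial UMIs. The 2420 FA barcodes scored as likely doublets had 538.0 CPM (528.3 to 547.8), or 11687 chain UMIs beside 13558 in all kept FA cells, against 15.9 CPM (12.6 to 19.8) in the 488 control ones. Their Gc level was 140.5 CPM, against 79.7 in kept FA cells, and their Hp level 77.5 against 141.5.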

How the results depend on the processing

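No paired analysis was possible because each group has 1 library, so no replicate could be left out either. No recomputed ratio of a member changed direction under the alternatives run. The chain ratio of 12.1 was 15.3 with no filter on mitochondrial share or genes, 13.8 with at most 20% mitochondrial UMIs and at least 500 genes, 16.7 with likely doublets kept and 22.1 with every cell weighed the same. The 23 member and class pairs 2-fold higher were 52 of 63 measured with likely doublets kept and 42 of 79 with no minimum of UMIs, settings that let more pairs be measured than the 34 of the report; other settings gave 22 to 26. The 3-chain share of 3.799% was 2.66% under the stricter filter, 0.748% at 2 UMIs of each chain, 1.296% and 8.02% thinned to 500 and 2000 UMIs, and 11.96% unthinned; other settings gave 3.597% to 4.30%. The tubule-like share of FA chain UMIs, 91.2%, was 88.5% with no filter, 90.3% under the stricter filter, 89.4% with doublets kept and 90.1% at Leiden resolution 2. Of thinned FA tubule-like cells with Fga, 53.0% had Fgg, and 46.2% under the stricter filter, 39.8% and 64.8% thinned to 500 and 2000 UMIs and 70.7% unthinned. Where no construction of a setting shows the cause of a shift, the cause was not tested. The median log2 ratio of all genes over all kept cells, -0.10, changed sign to 0.23 with no filter and was -0.20 under the stricter filter, and in proximal tubule-like cells, -0.13, it ran from -0.56 at Leiden resolution 0.5 to -0.0037 with median-of-ratios scaling. The 32 listed genes 2-fold higher over all kept cells were 24 to 35 under the alternatives. The share of all genes 2-fold higher, 11.6%, itself ran from 8.92% to 18.1% under the alternatives run for it, so nothing is read from that range.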
